A study of Homo sapiens with 6 samples.

Results

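Collagen, laminin and integrin genes were followed in H1299, a human line established from a non-small cell lung cancer, with and without overexpression of the long non-coding RNA lncBCAS1-4_1. Members were the entries of the count table whose symbol named a collagen alpha chain, a laminin alpha, beta or gamma chain, or an integrin alpha or beta subunit. The rule found 54 of 19201 entries, of which 24 were collagens, 10 laminins and 20 integrins, and all 54 passed the filter on low counts that left 19101 entries for testing. Each group held 3 RNA-seq libraries: wild-type H1299 as controls, and H1299 labelled as overexpressing lncBCAS1-4_1. The labels name no vector for the controls and do not say whether the overexpressing cells were 1 clone or a pool, so what the overexpression procedure did and what the RNA did cannot be told apart. No label says that replicates were separate cultures, so each p-value reflects only the spread among these 6 libraries, which may be technical. GENCODE 44 lists 82 genes whose symbols match the rule, and those outside the 54, such as COL1A2, COL3A1 and COL4A1, were not analysed here.

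Collagens and laminins are secreted matrix proteins. Collagen chains wind into triple helices that form fibrils, sheets or short transmembrane rods, and laminins are cross-shaped trimers of an alpha, a beta and a gamma chain that polymerise into basement membranes. Integrins are the transmembrane receptors that bind this matrix: each is a pair of an alpha and a beta subunit, and the pairing sets which ligand is bound. In epithelia, the integrin of ITGA6 and ITGB4 and the transmembrane collagen COL17A1 hold hemidesmosomes to a laminin that contains LAMA3 and LAMB3.

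Total counts ran from 84531039 to 92780032 per library, and no library stood apart in depth. CPM below are counts scaled to the TMM-adjusted library size. Of 6 epithelial markers 4 had an entry, and their summed level was 1261 to 1428 CPM for control libraries and 1677 to 1891 CPM for overexpressing ones, almost all of it KRT8 and KRT18. EPCAM and CDH1 had no entry, and KRT19 averaged 0.18 CPM. Of 7 lung epithelial markers NKX2-1 alone had an entry, at under 1 CPM, and fibroblast markers (2 of 7 with an entry) summed to 0.617 to 1.20 CPM without and 0.984 to 1.47 CPM with overexpression. Endothelial markers (5 of 7) summed to at most 2.42 CPM in any library. Of 9 leukocyte markers 3 had an entry, and CD68, also a lysosomal protein of other cells, made up nearly all of their 72.4 to 76.9 CPM without and 82.2 to 91.6 CPM with overexpression.

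In bulk RNA a lower level can mean fewer cells that express a gene or less RNA per cell, and the values below cannot tell these apart. A total of 15 members passed the test, edgeR's quasi-likelihood test with Benjamini-Hochberg adjustment over all 19101 entries at an adjusted p of 0.05. Of the 54 members 7 were higher in the overexpressing cells (13%) and 8 lower (14.8%), against 18.3% higher and 19.7% lower among all entries tested. These shares lie below the background, so the members as a set did not stand out by how many changed. The 3 groups differed: 12.5% of the collagens were higher and 4.17% lower, and 10% and 10% of the laminins. Of the integrins 15% were higher and 30% lower, the latter above the 19.7% of all entries. The share lower was 31.6% among all entries with at least 10 CPM, a level that only 10 of the 20 integrins reached. Of the falling integrins ITGB1, ITGA6, ITGAV and ITGA4 reached it, and ITGB6 and ITGB8 did not. The median log2 fold change of the 54 members was 0.031, and that of all entries was -0.0041. In 11 members every overexpressing library lay above every control and in 10 every one lay below, which is 20.4% and 18.5% against 24.7% and 26.0% of all entries.

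Fold changes across the whole table followed the GC content of the transcripts, and the members did so too. Over the 37 members with at least 1 CPM, the Spearman correlation of the log2 fold change with GC content was 0.57, a description across genes that share the same 6 libraries and similar base composition within a family. It was 0.71 over about 11400 genes, those whose mean log2 CPM exceeded 2. The collagens were GC-rich, with a median GC content of 59.6% against 48.7% for all entries, while the integrin transcripts ranged from 38.3% for ITGAV to 63.6% for ITGB4. Each fold change is therefore given as fitted and after the GC content and length of the transcripts had been corrected for, library by library. With the correction 6 members were higher and 3 lower, against 11.4% and 11.3% of all entries, and 5 members were called in the same direction by both fits. These 5 were COL17A1 and ITGA6, which fell, and LAMB2, ITGB5 and ITGA10, which rose.

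**Figure D1:**
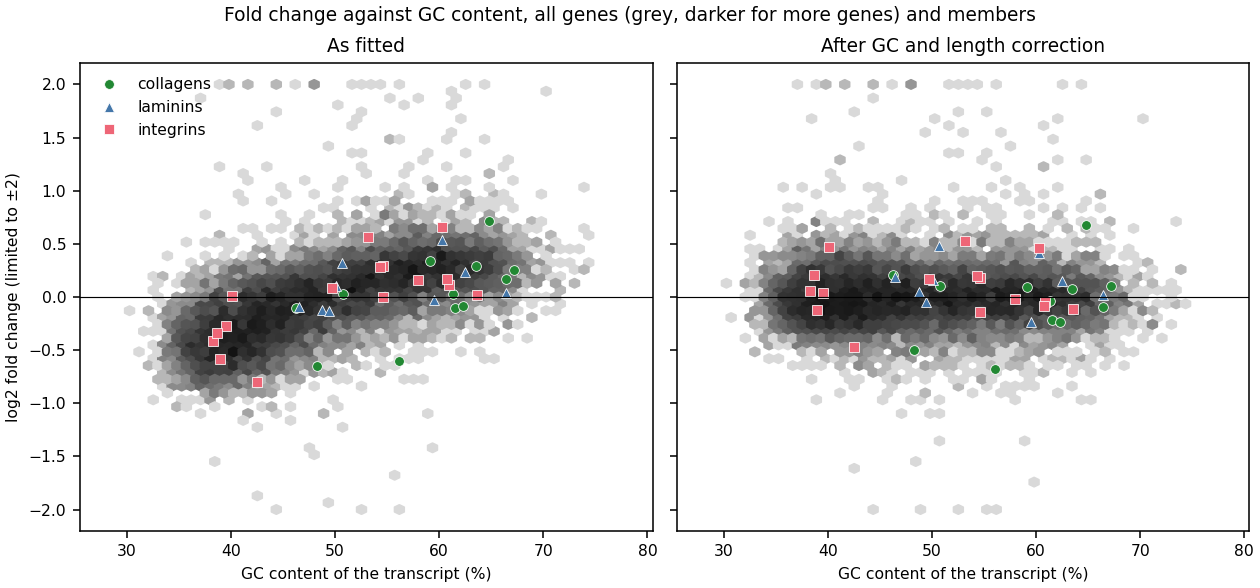
The log2 fold change (vertical axis, limited to ±2) is plotted against GC content of the canonical transcript (horizontal axis, %) for all genes with at least 4 CPM (grey, darker where genes are denser) and for the 37 members with at least 1 CPM (coloured). As fitted the cloud slopes upward and ITGAV, ITGB1 and ITGA4 sit at its low-GC end; after the correction the cloud is flat, and COL17A1 and ITGA6 stay at its lower edge.

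The promoter windows of these 5 genes are printed because they are the members that passed in the same direction with and without the correction. Each runs from 250 bases before to 50 bases after the RefSeq start in GRCh38.p14, 5′ to 3′ on the gene's strand, and capitals mark the GC box, GGGCGG or its reverse complement, a motif bound by Sp1-family factors. The windows are chr10:104085831-104086130 (minus strand) for COL17A1, chr2:172427086-172427385 (plus) for ITGA6, chr3:49133001-49133300 (minus) for LAMB2, chr3:124901369-124901668 (minus) for ITGB5 and chr1:145910001-145910300 (minus) for ITGA10.
COL17A1: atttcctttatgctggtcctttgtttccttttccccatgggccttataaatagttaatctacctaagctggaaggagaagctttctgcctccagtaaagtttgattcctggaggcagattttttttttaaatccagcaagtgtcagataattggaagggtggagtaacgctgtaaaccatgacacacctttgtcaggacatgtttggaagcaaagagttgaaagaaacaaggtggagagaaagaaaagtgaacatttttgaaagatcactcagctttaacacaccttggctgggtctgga
ITGA6: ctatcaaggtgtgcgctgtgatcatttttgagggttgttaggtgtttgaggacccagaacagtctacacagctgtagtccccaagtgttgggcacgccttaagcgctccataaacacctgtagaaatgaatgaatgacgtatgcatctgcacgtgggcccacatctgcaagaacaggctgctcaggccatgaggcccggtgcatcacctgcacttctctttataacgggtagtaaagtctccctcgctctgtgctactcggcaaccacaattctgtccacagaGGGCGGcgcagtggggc
LAMB2: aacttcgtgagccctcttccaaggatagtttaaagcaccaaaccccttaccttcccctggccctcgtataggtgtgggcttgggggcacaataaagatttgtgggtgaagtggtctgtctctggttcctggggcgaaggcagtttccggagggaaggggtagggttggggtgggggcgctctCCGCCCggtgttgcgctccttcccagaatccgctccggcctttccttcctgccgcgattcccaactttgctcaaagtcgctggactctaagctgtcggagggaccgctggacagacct
ITGB5: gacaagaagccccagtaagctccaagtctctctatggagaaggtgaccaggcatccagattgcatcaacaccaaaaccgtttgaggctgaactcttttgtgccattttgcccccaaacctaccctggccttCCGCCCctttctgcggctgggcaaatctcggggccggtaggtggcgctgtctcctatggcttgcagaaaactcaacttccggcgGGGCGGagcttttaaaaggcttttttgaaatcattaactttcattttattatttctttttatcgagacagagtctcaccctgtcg
ITGA10: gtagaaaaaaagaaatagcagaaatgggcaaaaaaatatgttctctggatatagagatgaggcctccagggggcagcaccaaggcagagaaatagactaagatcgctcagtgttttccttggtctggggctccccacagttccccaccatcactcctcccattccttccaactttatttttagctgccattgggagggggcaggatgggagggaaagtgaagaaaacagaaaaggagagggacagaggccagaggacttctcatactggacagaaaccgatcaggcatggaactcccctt

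The falling COL17A1 and the rising ITGA10 had no GC box in this window, ITGA6 and LAMB2 had 1 each and ITGB5 had 2. Of all 35116 RefSeq windows of this length 45.0% held a GC box, as did 23 of the 40 members with a window. A TATA box (TATAAA, either strand) was found in the windows of COL17A1 and ITGA6, against 11.5% of all windows and 5 of the 40. The AP-1 motif TGANTCA, found in 7.71% of all windows, was in none of the 5 windows. An E-box (CACGTG), found in 7.26% of all windows, was in that of ITGA6, the only one of the 40 to hold it. The GC content of the windows was 40.7% for COL17A1, 53.0% for ITGA6, 58.7% for LAMB2, 49.7% for ITGB5 and 48.7% for ITGA10, against a median of 58.7% over all windows. These matches are letters in a sequence and not measured binding, and which start of a gene these cells use was not tested.

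The collagens were mostly low: 12 of 24 averaged under 1 CPM, 8 lay between 1 and 10 CPM and 4 reached 10 CPM. Expressed per kb of the canonical transcript, which allows levels of different genes to be compared, collagen RNA was dominated by 3 genes. COL6A2 made up 41.7% ± 1.0 of the summed collagen CPM per kb in the controls (SD, n = 3), COL18A1 25.4% ± 0.1 and COL6A1 20.9% ± 0.4. COL6A1 and COL6A2 encode chains of collagen VI, which forms beaded microfibrils around cells, and COL18A1 encodes the basement membrane collagen from which endostatin is cleaved. The fibril-forming COL1A1, by contrast, averaged 0.271 CPM per kb in the controls and the collagen IV chain gene COL4A2 0.019 CPM per kb. Summed over the 24 genes, collagen RNA was 80.7, 87.6 and 96.3 CPM per kb in the controls and 100.6, 105.9 and 94.6 CPM per kb in the overexpressing libraries, so the groups overlapped.

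Of the 24 collagens 3 rose and 1 fell as fitted, which is 12.5% and 4.17% against 18.3% and 19.7% of all entries. COL17A1, the transmembrane collagen of hemidesmosomes (chromosome 10, 104031286 to 104085880, minus strand, GRCh38 by GENCODE 44), was at 11.6, 11.3 and 10.9 CPM in the controls and at 7.60, 7.49 and 7.24 CPM in the overexpressing libraries. All overexpressing libraries lay below all controls, and the spread within each group was under 0.4 CPM (SD). COL17A1 fell by 0.60 on the log2 scale (SE 0.10, edgeR adjusted p = 0.0014) and by 0.68 after the correction (adjusted p = 0.0011). Genes of similar GC content went the other way on average: COL17A1 has 56.1% GC, and the median log2 fold change of the genes between 48.1% and 56.5% was 0.12.

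The 3 collagens that rose as fitted did not pass after the correction. COL18A1 was at 111.5, 120.6 and 131.8 CPM in the controls against 144.2, 151.7 and 138.5 CPM, with no overlap between the groups, and rose 1.19-fold (log2 fold change 0.26, SE 0.06, adjusted p = 0.012). Its corrected value was 0.11 (adjusted p = 0.070), and its exons overlap those of SLC19A1 on the opposite strand over 1563 bases. COL6A1 was at 69.2, 77.9 and 85.3 CPM in the controls against 91.5, 100.8 and 92.0 CPM and rose 1.22-fold (adjusted p = 0.014), with a corrected value of 0.078 (adjusted p = 0.35). Without overexpressing library 2 its adjusted p was 0.052. COL6A2 did not pass at 0.17 on the log2 scale (adjusted p = 0.18), and without control library 3 the value was 0.26 (adjusted p = 0.033). COL6A1 and COL6A2 lie in the same orientation on chromosome 21 with 93061 bases between them. COL11A2, a minor chain of cartilage fibrils, had 13, 36 and 29 counts in the controls and 52, 61 and 67 in the overexpressing libraries. It rose 2.45-fold (log2 fold change 1.30, SE 0.40, adjusted p = 0.030) from a low level, and its corrected value of 1.19 was nearly as large but did not pass (SE 0.40, adjusted p = 0.060). The call as fitted was lost without any of 4 libraries: control 1 (0.98, adjusted p = 0.068) or overexpressing 1 (1.38, adjusted p = 0.056), 2 (1.26, adjusted p = 0.077) or 3 (1.24, adjusted p = 0.075).

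COL12A1, a collagen that decorates fibrils, went in opposite directions in the fits. Its levels were 53.3, 57.5 and 50.6 CPM in the controls and 49.8, 50.3 and 50.2 CPM in the overexpressing libraries, each of the latter just below the lowest control. The log2 fold change was -0.10 as fitted (SE 0.05, adjusted p = 0.18) and 0.21 after the correction (SE 0.04, adjusted p = 0.0081), at a GC content of 46.3% and a transcript length of 11725 bases. No direction is therefore given for COL12A1.

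The other collagens did not pass in either fit. Among those between 1 and 10 CPM, COL27A1 had a log2 fold change of 0.030 (SE 0.14), COL4A5 one of 0.031 (SE 0.14), and COL13A1 one of 0.34 (SE 0.17, adjusted p = 0.16). COL27A1 is a fibrillar collagen of cartilage, COL4A5 a chain of specialised basement membranes and COL13A1 a transmembrane collagen. COL7A1, the anchoring fibril collagen beneath hemidesmosomes, had 84, 40 and 92 counts in the controls and 111, 84 and 144 in the overexpressing libraries (log2 fold change 0.72, SE 0.34, adjusted p = 0.14). For COL5A2 the log2 fold change was -0.65 (adjusted p = 0.15), and for COL25A1, a neuronal transmembrane collagen, it was -0.73 (adjusted p = 0.071), with all overexpressing libraries below the controls. COL9A3 was uneven within a group, at 7, 86 and 25 counts in the overexpressing libraries.

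Collagen IV chains come from gene pairs that face away from each other. COL4A5 and COL4A6 start 340 bases apart on chromosome X and COL4A3 and COL4A4 start 170 bases apart on chromosome 2. The levels within a pair were not equal: COL4A5 was at 0.788 CPM per kb in the controls and COL4A6 at 0.063 CPM per kb, while COL4A3 and COL4A4 were at 0.047 and 0.064 CPM per kb. None of the 4 genes passed the test, with log2 fold changes of 0.031 for COL4A5, 0.29 for COL4A6, -0.52 for COL4A3 and -0.33 for COL4A4. The remaining collagens (COL1A1, COL16A1, COL11A1, COL26A1, COL5A1, COL8A1, COL14A1, COL4A2 and COL9A3) had log2 fold changes from -0.65 to 1.07, with SE from 0.23 to 1.03. COL26A1 at the upper end rested on 3, 7 and 11 counts against 15, 12 and 15. For COL4A2, COL8A1, COL9A3, COL14A1 and COL26A1 the SE was larger than the whole log2 fold change of COL17A1, so a difference of that size was not detectable at this depth.

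**Figure D2:**
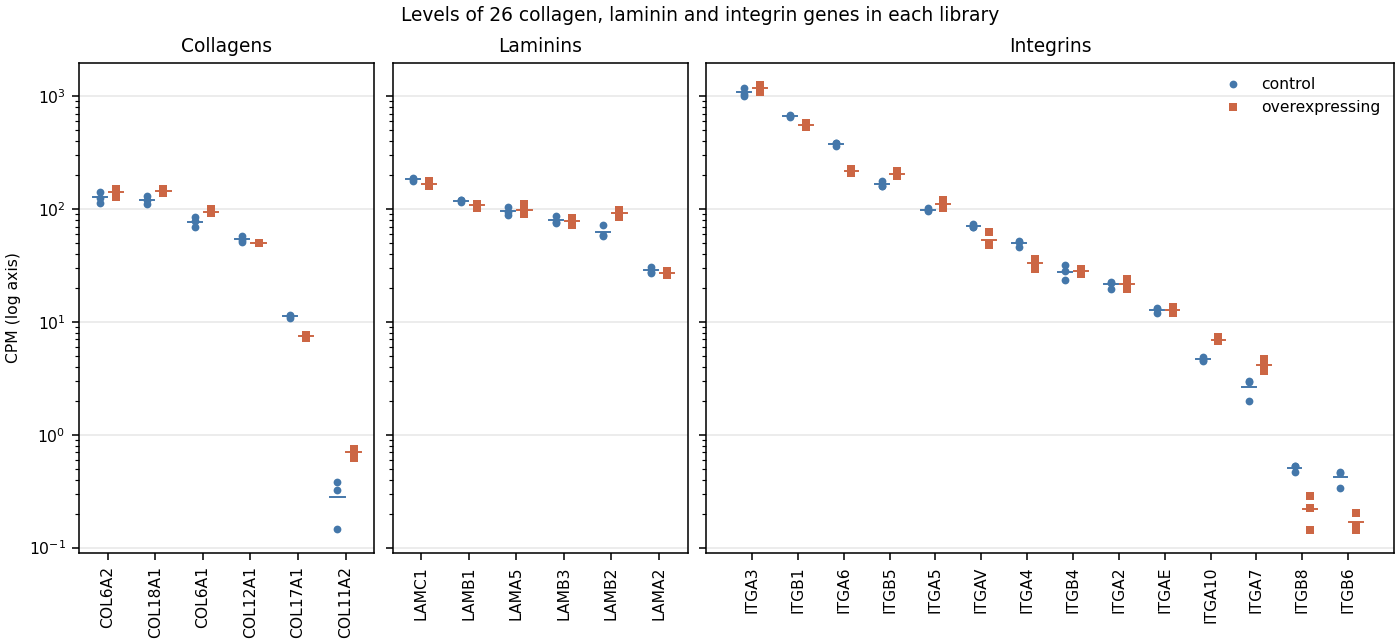
CPM in each library (log axis) for 26 members that passed the test or averaged at least 10 CPM, with controls as circles, overexpressing libraries as squares and lines at the group means. The groups stand clear of each other for COL17A1, LAMB2, ITGA6, ITGB5 and ITGA10, and also for others such as ITGB1, ITGAV, ITGA4 and COL18A1. ITGA3, the highest member, overlaps.

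Laminin chain genes were present for all 3 chain types. LAMA5, LAMA2, LAMA3 and LAMA4 were the measured alpha chains, LAMB1, LAMB2 and LAMB3 the beta chains, and 7 of the 10 reached 10 CPM. LAMA5 held 71.7% ± 0.5 of the summed alpha chain CPM per kb in the controls (SD, n = 3), LAMA2 25.2% ± 0.4 and LAMA3 1.93% ± 0.14. LAMB3, which joins LAMA3 in the laminin of hemidesmosomes, was far above it: LAMA3 was at 0.225 CPM per kb in the controls and LAMB3 at 19.9 CPM per kb. The summed alpha, beta and gamma chain levels were 11.7 ± 0.9, 51.9 ± 3.4 and 36.0 ± 1.0 CPM per kb in the controls and 11.8 ± 0.9, 54.6 ± 2.5 and 35.2 ± 1.7 CPM per kb in the overexpressing cells (SD, n = 3 each).

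LAMB2, a beta chain of mature basement membranes in muscle, kidney and vessels (chromosome 3, 49121114 to 49133118, minus strand), was the laminin that rose in both fits. It was at 58.2, 59.0 and 72.3 CPM in the controls and at 85.6, 98.8 and 90.04 CPM in the overexpressing libraries, with no overlap, although control 3 stood above the other controls. The rise was 1.45-fold (log2 fold change 0.53, SE 0.09, adjusted p = 0.0015), and the corrected log2 fold change was 0.41 (adjusted p = 0.0027).

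LAMB1, the beta chain that takes the same place in other laminins, went the other way as fitted. It was at 119.2, 115.3 and 120.4 CPM in the controls and at 102.9, 109.7 and 110.9 CPM in the overexpressing libraries, a fall by 0.13 on the log2 scale (SE 0.04, adjusted p = 0.041). This call was lost with DESeq2 size factors (adjusted p = 0.052), after the correction (-0.052, adjusted p = 0.34) and without any library other than overexpressing 3 (adjusted p from 0.069 to 0.12). The level of LAMB1 per kb was 2.07, 1.97 and 1.68 times that of LAMB2 in the controls and 1.21, 1.12 and 1.24 times in the overexpressing libraries. LAMB2 thus took 21.3% ± 1.3 of the beta chain CPM per kb in the controls and 29.4% ± 0.9 in the overexpressing cells (SD, n = 3 each), values given without a test.

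Of the other laminins none passed as fitted, and LAMB3 was lower after the correction. LAMB3 was at 75.8, 76.3 and 87.4 CPM in the controls and 78.5, 83.3 and 72.8 CPM in the overexpressing libraries (log2 fold change -0.030, SE 0.07), and at a GC content of 59.5% its corrected value was -0.23 (SE 0.04, adjusted p = 0.0052). The groups overlapped. LAMA3 was at 2.31, 2.49 and 2.39 CPM in the controls and 3.51, 2.61 and 2.85 CPM in the overexpressing libraries, a log2 fold change of 0.32 (SE 0.16, adjusted p = 0.16) with no overlap between the groups.

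LAMC1, LAMA5 and LAMA2, chains of widespread basement membranes, did not pass in either fit. LAMC1, the gamma chain shared by most laminins, was at 183 ± 6 and 168 ± 9 CPM (log2 fold change -0.12, SE 0.05, edgeR adjusted p = 0.079); it passed with scaling by library size alone (-0.17, adjusted p = 0.029). LAMA5 was at 96.1 ± 8.1 and 98.8 ± 10.4 CPM and LAMA2 at 28.6 ± 1.8 and 26.9 ± 1.2 CPM (SD, n = 3 each), with log2 fold changes of 0.040 (SE 0.08) and -0.092 (SE 0.07). LAMC3 had a log2 fold change of 0.23 (SE 0.14) and LAMA4 one of -0.26 (SE 0.32).

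**Figure D3:**
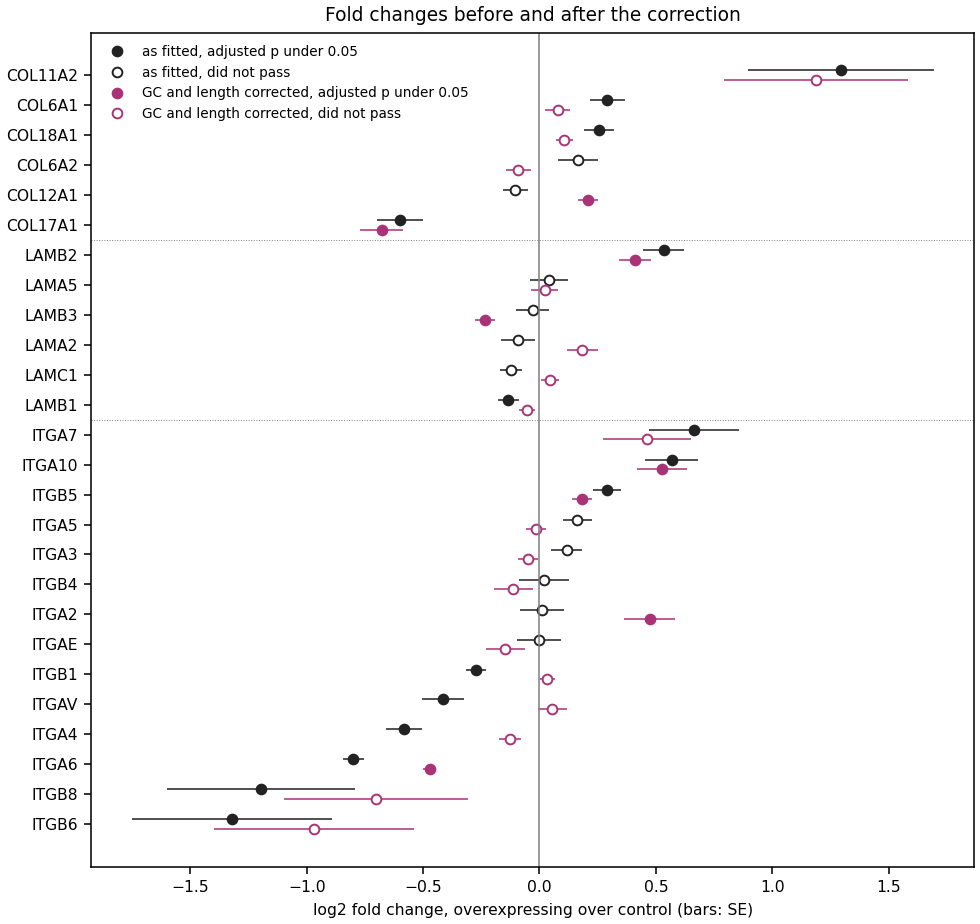
Log2 fold changes (overexpressing over control, bars: SE) of 26 members that passed the test or averaged at least 10 CPM, as fitted in black and after the GC and length correction in purple, with filled circles where the adjusted p was under 0.05. COL17A1, LAMB2, ITGB5, ITGA10 and ITGA6 are filled on the same side in both fits, while ITGB1, ITGAV and ITGA4 move toward 0 and are open after the correction.

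Among the integrins, ITGA3 and ITGB1 dominated. ITGA3, whose pair with ITGB1 binds laminins, held 65.7% ± 2.1 of the summed alpha subunit CPM per kb in the controls, ITGA6 19.4% ± 1.6 and the fibronectin receptor subunit ITGA5 6.88% ± 0.16 (SD, n = 3 each). ITGB1, the beta subunit shared by most matrix receptors, held 80.4% ± 1.3 of the summed beta subunit CPM per kb, followed by ITGB5 with 16.7% ± 1.0 and ITGB4 with 2.11% ± 0.31. The alpha subunits able to pair with ITGB1 summed to 1.78, 1.78 and 1.99 times the ITGB1 level in the controls and to 2.16, 2.36 and 1.98 times in the overexpressing libraries, so the groups overlapped.

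ITGA6, a laminin receptor subunit that pairs with ITGB1 or ITGB4 (chromosome 2, 172427354 to 172506459, plus strand), had the smallest p of all members. It was at 385.7, 382.3 and 365.8 CPM in the controls and at 211.5, 210.8 and 228.6 CPM in the overexpressing libraries. The groups were far apart, with the highest overexpressing library well below the lowest control. ITGA6 fell by 0.80 on the log2 scale (SE 0.05, adjusted p = 2.3e-05), and after the correction by 0.47 (SE 0.03, adjusted p = 1.2e-05), a smaller change at a GC content of 42.5%. Its share of the alpha subunit CPM per kb went from 20.6%, 19.8% and 17.6% in the controls to 11.2%, 10.6% and 12.6% in the overexpressing libraries.

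ITGB4, the partner of ITGA6 in hemidesmosomes, did not move with it: it was at 23.4, 28.01 and 32.0 CPM in the controls and 28.6, 29.3 and 26.6 CPM in the overexpressing libraries. Its log2 fold change was 0.018 (SE 0.11) as fitted and -0.11 (SE 0.08) after the correction. ITGA6 per ITGB4 was 16.7, 13.8 and 11.6 in the controls and 7.51, 7.28 and 8.72 in the overexpressing libraries, both in CPM per kb. Of the hemidesmosome genes described here, COL17A1 and ITGA6 thus fell in both fits, while ITGB4 and LAMA3 passed in neither and LAMB3 passed only after the correction.

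The other falling integrins were AT-rich and lost their calls with the correction. ITGB1 was at 666.8, 687.2 and 660.4 CPM in the controls and at 552.0, 532.9 and 582.2 CPM in the overexpressing libraries, a fall by 0.27 on the log2 scale (SE 0.04, adjusted p = 0.0013) with no overlap. At a GC content of 39.5% its corrected value was 0.034 (adjusted p = 0.52). ITGAV, the alpha subunit of RGD-binding receptors such as that with ITGB5, was at 70.1, 73.0 and 70.0 CPM against 49.1, 48.3 and 62.2 CPM and fell by 0.42 (adjusted p = 0.0057), with a corrected value of 0.056 (adjusted p = 0.58). ITGA4, which with ITGB1 binds VCAM1 and fibronectin, was at 51.7, 51.0 and 46.5 CPM against 34.2, 29.7 and 35.9 CPM and fell by 0.58 (adjusted p = 0.00063), with a corrected value of -0.13 (adjusted p = 0.088). The exons of ITGA4 overlap those of CERKL on the opposite strand over 2813 bases, and the strandedness of the counting is not given in the sources used here. For these 3 genes the counts were lower in every overexpressing library, but the difference cannot be told apart from the trend of the whole table with GC content.

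The beta subunits ITGB6 and ITGB8, which pair with ITGAV in receptors that activate latent TGF-beta, were both low and lower still in the overexpressing cells. ITGB6 had 42, 43 and 30 counts in the controls and 12, 17 and 14 in the overexpressing libraries (log2 fold change -1.32, SE 0.43, adjusted p = 0.038). ITGB8 had 47, 44 and 47 counts against 19, 12 and 26 (log2 fold change -1.20, SE 0.41, adjusted p = 0.044). Neither passed after the correction (-0.97, adjusted p = 0.15, and -0.70, adjusted p = 0.25), and ITGB8 missed with DESeq2 (adjusted p = 0.055). Each call needed nearly every library: without control 1, control 2 or overexpressing 1, 2 or 3 the adjusted p of ITGB6 was 0.056 to 0.12, and that of ITGB8 without control 1, 2 or 3 or overexpressing 1 or 2 was 0.090 to 0.12.

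The integrins that rose were ITGB5, ITGA10 and ITGA7. ITGB5, whose pair with ITGAV binds vitronectin, was at 159.3, 160.3 and 177.5 CPM in the controls and at 194.4, 217.1 and 196.6 CPM in the overexpressing libraries. It rose 1.22-fold (log2 fold change 0.29, SE 0.06, adjusted p = 0.0044) with no overlap, and the corrected value was 0.18 (adjusted p = 0.015). The corrected call was lost without control 1 (0.16, adjusted p = 0.065) or control 2 (0.16, adjusted p = 0.067). ITGB5 per ITGB1 was 0.20, 0.20 and 0.23 in the controls and 0.30, 0.34 and 0.28 in the overexpressing libraries, both in CPM per kb.

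ITGA10, a collagen-binding alpha subunit known from cartilage, was at 4.59, 4.51 and 4.90 CPM in the controls and at 6.72, 7.27 and 6.76 CPM in the overexpressing libraries. All overexpressing libraries were above all controls, and the rise of 1.48-fold (log2 fold change 0.57, SE 0.11, adjusted p = 0.0041) was 0.53 after the correction (adjusted p = 0.0073). ITGA7, a laminin receptor subunit of muscle, was at 3.01, 1.98 and 2.94 CPM in the controls and at 3.64, 4.24 and 4.66 CPM in the overexpressing libraries, a rise of 1.58-fold (adjusted p = 0.023). ITGA7 did not pass after the correction (0.46, adjusted p = 0.12) or without control 2 (0.49, adjusted p = 0.066), overexpressing 2 (0.65, adjusted p = 0.059) or overexpressing 3 (0.58, adjusted p = 0.073).

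The remaining collagen-binding alpha subunits did not pass as fitted. ITGA2 was at 19.7, 22.5 and 22.2 CPM in the controls and at 19.6, 23.9 and 21.3 CPM in the overexpressing libraries, with a log2 fold change of 0.011 (SE 0.09). At a GC content of 40.1% its corrected value was 0.47 (SE 0.11, adjusted p = 0.013), a call that was lost without control 1 (adjusted p = 0.053) and that rests on the correction, since the uncorrected levels overlapped. ITGA1 was at 9.53 ± 1.35 and 7.54 ± 1.14 CPM (SD, n = 3 each), a difference of -0.34 on the log2 scale (adjusted p = 0.11). Its exons share 499 bases with PELO on the same strand.

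Among the other alpha subunits, ITGA3 was at 1006, 1055 and 1188 CPM in the controls and 1176, 1247 and 1098 CPM in the overexpressing libraries (log2 fold change 0.12, SE 0.07, adjusted p = 0.22; 0.19, adjusted p = 0.041, without control 3), with overlapping groups. ITGA6 per ITGA3 was 0.32, 0.30 and 0.26 in the controls and 0.15, 0.14 and 0.18 in the overexpressing libraries, in CPM per kb. ITGA5 was at 95.8, 97.8 and 101.6 CPM against 107.0, 120.7 and 102.4 CPM (log2 fold change 0.16, SE 0.06, edgeR adjusted p = 0.071). ITGA5 passed with DESeq2 (adjusted p = 0.024), with the stricter filter on low counts (adjusted p = 0.049) and without overexpressing 3 (adjusted p = 0.026). Its corrected value was -0.015. ITGAE, the subunit that pairs with ITGB7 to bind E-cadherin, was level at 12.7 ± 0.6 and 12.7 ± 0.8 CPM (SD, n = 3 each; log2 fold change -0.0017).

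ITGAM, ITGA2B, ITGB3, ITGB2 and ITGAX, a part of the integrin subunits found on blood cells, averaged under 10 CPM and did not pass. ITGAM was at 2.89 ± 0.47 and 3.51 ± 0.53 CPM, ITGA2B of platelets at 1.16 ± 0.08 and 1.30 ± 0.45 CPM, ITGB3 at 9.36 ± 1.44 and 9.96 ± 1.32 CPM (SD, n = 3 each), and ITGB2 and ITGAX under 0.5 CPM in every library. ITGB2, the obligate partner of ITGAM and ITGAX, was thus at 0.102 CPM per kb in the controls where ITGAM was at 0.613 CPM per kb. The log2 fold changes of these 5 genes ran from 0.089 to 0.60.

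**Figure D4:**
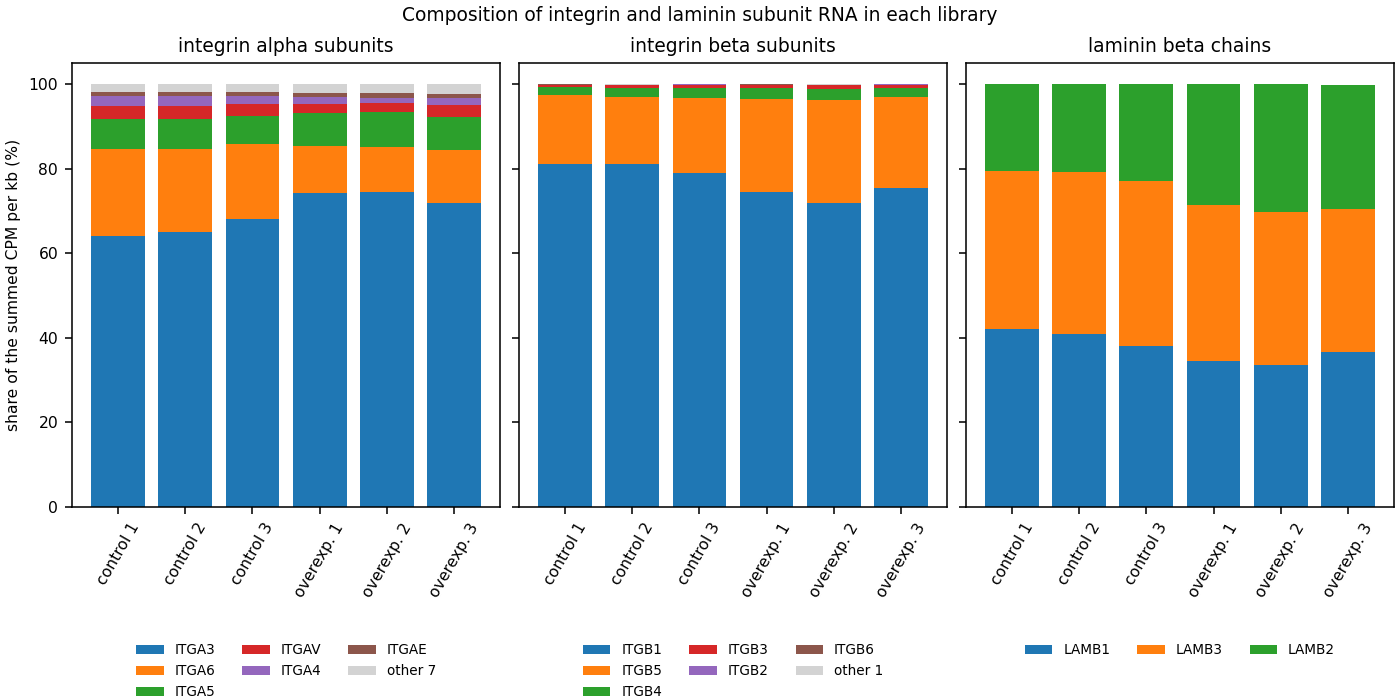
Bars give the share of each gene in the summed CPM per kb of integrin alpha subunits, integrin beta subunits and laminin beta chains in each of the 6 libraries, in %. The ITGA6 share is 17.6% to 20.6% in the controls and 10.6% to 12.6% in the overexpressing libraries, and the ITGB5 and LAMB2 shares are larger in every overexpressing library than in any control.

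Genes that modify, export and cross-link collagen were higher in 14 of 28 measured cases and lower in 4, with a median log2 fold change of 0.27. Beside this and the 3 lists that follow stand the shares of all entries, 18.3% higher and 19.7% lower as fitted and 11.4% and 11.3% after the correction. Of the 9610 entries with at least 10 CPM 30.2% were higher and 31.6% lower as fitted. After the correction 1855 of these 9610 were higher and 1797 lower. LOXL2, a lysyl oxidase that cross-links collagen IV, rose 1.47-fold from 251 ± 12 to 369 ± 13 CPM, and the prolyl isomerase PPIB from 363 ± 20 to 493 ± 18 CPM (SD, n = 3 each). The collagen chaperone SERPINH1 rose 1.33-fold. The lysyl hydroxylase PLOD2 fell by 0.51 on the log2 scale, the procollagen export factor MIA3 by 0.46 and the lysyl oxidase LOX by 0.32. After the correction 10 were higher and 1 lower, with a median of 0.085, and 9 of the 14 were higher in both fits, among them LOXL2 (0.36), PPIB (0.17) and SERPINH1 (0.12). PLOD2 (-0.17), MIA3 (-0.019) and LOX (0.064) no longer passed.

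Matrix partners of collagens, laminins and integrins were higher in 6 of 22 measured cases and lower in 2, with a median of 0.34 as fitted and 0.22 after the correction, where 7 were higher and 1 lower. The share higher as fitted lay between the 18.3% of all entries and the 30.2% of those with at least 10 CPM. The matricellular integrin ligands CCN2 and CCN1 rose 1.63-fold and 1.55-fold, and TGFBI, another integrin ligand, rose 1.88-fold. HSPG2, the basement membrane proteoglycan perlecan, named after its values were seen, rose 1.60-fold from 118 ± 13 to 188 ± 13 CPM (SD, n = 3 each). All 4 passed after the correction, at 0.56, 0.51, 0.74 and 0.68 on the log2 scale. The fibrillin FBN2 fell by 0.36 and the laminin-binding nidogen NID1 by 0.28, with corrected values of -0.13 (adjusted p = 0.043) and -0.25 (adjusted p = 0.072).

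Other receptors of collagen and laminin were higher in 5 of 12 measured cases and lower in 1, against 30.2% and 31.6% of all entries with at least 10 CPM, with a median of 0.15 (0.11 after the correction, with 5 higher and 2 lower). The collagen receptor kinase DDR1 rose 1.48-fold, RPSA, a ribosomal protein also described as a laminin receptor, 1.24-fold and the syndecan SDC4 1.24-fold, and all 3 passed after the correction (0.34, 0.17 and 0.25). ADGRG1, a receptor for collagen III, fell by 0.58 on the log2 scale (-0.76 after the correction, adjusted p = 0.0034).

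Of 39 measured genes of the adhesion complex that links integrins to actin, 13 were higher and 9 lower, with a median of 0.066. The share higher was near the 30.2% of all entries with at least 10 CPM and the share lower was under their 31.6%, so the complex did not stand out by these counts. The actin cross-linker ACTN4 rose 1.37-fold, and the adaptors BCAR1 and ZYX 1.29-fold and 1.30-fold. LIMS1, the partner of integrin-linked kinase, went from 65.7 ± 0.6 to 40.9 ± 3.2 CPM (SD, n = 3 each) and fell by 0.68 on the log2 scale, focal adhesion kinase PTK2 by 0.43 and the adaptor CRK by 0.38. After the correction 11 were higher and 7 lower with a median of -0.015, and LIMS1 (-0.35), PTK2 (-0.23), CRK (-0.25), ACTN4 (0.31) and BCAR1 (0.15) passed in the same direction while ZYX (0.062) did not. The mRNAs encoded by mitochondrial DNA, listed as a possible sign of RNA quality, were lower in all 13 cases with a median of -0.70. Whether their level reflects RNA quality here was not tested. After the correction all 13 were still lower, with a median of -0.66. The part of these mRNAs in the differences above was not tested.

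**Figure D5:**
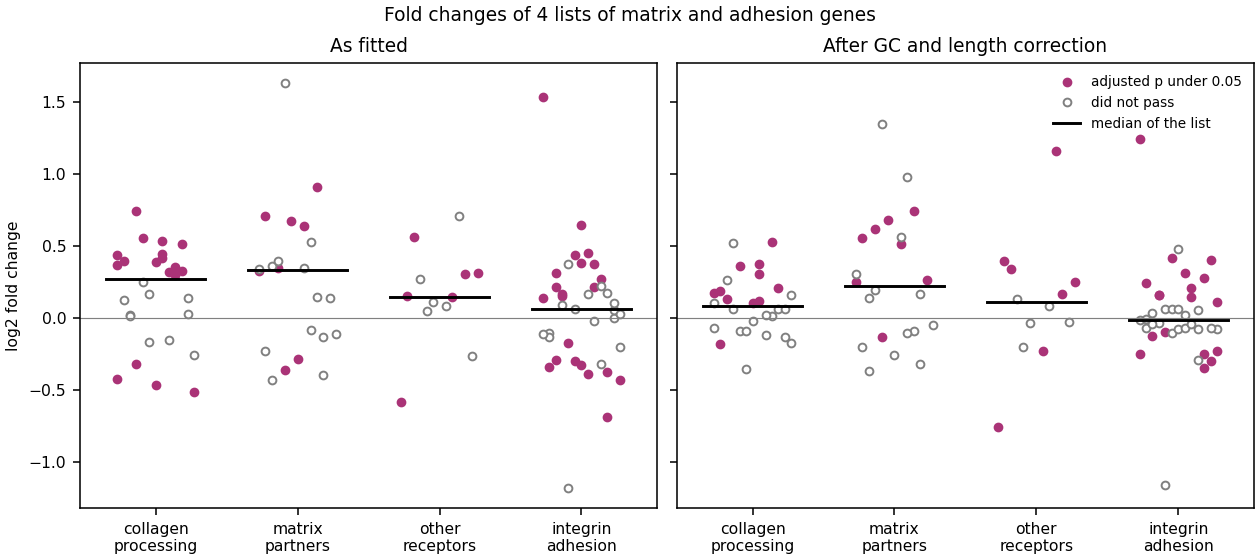
Each point is a measured gene of 4 lists (collagen processing, matrix partners, other receptors of collagen and laminin, integrin adhesion complex), with its log2 fold change as fitted on the left and after the correction on the right, filled where the adjusted p was under 0.05, and a line at the list's median. The medians as fitted are 0.27, 0.34, 0.15 and 0.066, and the collagen processing median moves most, to 0.085.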

How the data were processed

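Per the labels' protocols, the authors used fastp for trimming, HISAT2 for alignment to GRCh38, StringTie and gffcompare for transcripts and edgeR for testing. The sources used here do not state versions, library kit or strandedness. The authors deposited unnormalized gene counts in a table of 19201 entries, each with at least 10 counts in at least 3 libraries. The counts went into edgeR 4.0.16 under R 4.3.3 (quasi-likelihood F-test, TMM, filterByExpr with min.count 10 and min.total.count 15, group alone), on all 19101 entries left, with Benjamini-Hochberg adjustment at 0.05. The SE was derived from the log2 fold change and F. CPM use TMM-scaled library sizes, and CPM per kb the length of the GENCODE 44 canonical transcript.

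The correction entered, as offsets in the same fit, spline trends (5 degrees of freedom) against GC content and log2 length, estimated per library from log2 CPM relative to the gene's mean in genes whose mean log2 CPM exceeded 2. GC content was known for 99.3% of tested entries. The fits were also run on simulated counts with known changes, with and without an added GC trend. Those counts had a fixed dispersion and no length trend, so they cannot show that the correction suits the real libraries. The symbols of all 54 members matched GENCODE by Ensembl ID. Promoter windows were those of RefSeq (GRCh38.p14), where 40 of 54 members matched by symbol. For each member the first window listed was used, and any other start was left out.

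Some items are not reported here. Values are given for members past the threshold or with a mean of at least 10 CPM, the others by counts and ranges, with additional members named for their roles. From each of 4 pathway lists up to 3 higher and 3 lower genes with the smallest p are named. The members and lists were chosen with earlier results of these data known. Alternatives were DESeq2 size factors or library size in place of TMM, other filters, DESeq2 1.42.0, limma-voom (limma 3.58.1), fold minimums, the correction, a replicate block and leaving out each library. The correction combined with leaving out each library was added after seeing the data. Replicates were not duplicates: pairwise chi-square values were 11.6 to 22.7 times their degrees of freedom. At 84531039 to 92780032 counts per library, genes under 1 CPM rest on few counts.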

Additional observations from a re-analysis of the deposited data

How the results depend on the processing

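As fitted, 4 collagens (16.7%), 2 laminins (20%), 9 integrins (45%) and 7250 of all entries (38%) were called. With the GC and length correction the counts were 2 collagens (8.33%), 4 integrins (20%) and 4337 entries (22.7%), and the laminins numbered 3 (30%). By the criterion of over 2-fold with an unadjusted p under 0.05 they were 1 collagen, 0 laminins, 2 integrins and 564 entries. With an adjusted p under 0.05 and at least 1.5-fold they were 2, 0, 4 and 1727. Without a fold minimum 3 laminins had an unadjusted p under 0.05 in edgeR's test, and DESeq2 called 2. With DESeq2 size factors 1 laminin was called. Library size alone moved the split of all calls from 3496 higher and 3754 lower to 2908 and 4275. Leaving out 1 library gave 2 to 5 collagens, the lowest without overexpressing replicate 2, 1 to 2 laminins and 6 to 9 integrins (the lowest without control replicate 2), and with the correction 2 collagens, 2 to 4 laminins, 2 to 4 integrins (the lowest without control replicate 1) and 3026, 2943, 3753, 3555, 3403 and 3714 entries (control replicates 1 to 3, then overexpressing 1 to 3).

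Same-numbered libraries did not deviate together (correlations of -0.055, -0.16 and -0.32), so the numbers were not taken to pair them. With the replicate block 4 collagens, 1 laminin, 7 integrins and 5695 entries were called, LAMB1, ITGB6 and ITGB8 no longer passing (adjusted p = 0.12, 0.093 and 0.080), and with the replicate block and the correction together 2, 2, 4 and 3346.

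Among genes that passed in at least 1 of the fits compared, values changed sign with the correction for COL12A1 (0.21; 0.21 with the block; 0.19, 0.25, 0.18, 0.19, 0.21 and 0.23 leaving out each library in that order), ITGAV (0.056; 0.053 with the block; 0.025, 0.041, 0.095, 0.10 and 0.075, but -0.015 without overexpressing replicate 3) and ITGB1 (0.034; 0.035 with the block; 0.010, 0.028, 0.061, 0.035, 0.033 and 0.041). LAMA2 was higher after the correction without control replicate 3 (0.25). Of the genes that passed in neither fit, COL6A2 (0.17 and -0.091), ITGA3 (0.12 and -0.051), ITGA5 (0.16 and -0.015), ITGB4 (0.018 and -0.11), LAMC1 (-0.12 and 0.047), LAMA2 (-0.092 and 0.18) and ITGA1 (-0.34 and 0.21) also had opposite signs as fitted and corrected, as did COL27A1, ITGA2B and LAMA4. Over 27 members and 618 comparisons with an alternative, 454 stayed on the same side of the threshold with the same direction or passed in neither fit whatever their sign, 116 lost a call, 24 gained one and 24 changed sign with a call in at least 1 of the fits. ITGA6, COL17A1, LAMB2 and ITGA10 passed without each library in turn in both fits. Depth limits the 17 members under 1 CPM, of which none passed after the correction.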
